A study of Bos indicus with 5 samples.

Results

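Transcripts of 10 annexins, ANXA1 to ANXA9 and ANXA11, were quantified by sequencing RNA from the ampulla, the section of the oviduct in which fertilization takes place. The 10 genes were taken by symbol from the 24616 genes of the deposited table, and each symbol had 1 entry. The samples came from healthy multiparous Nelore cows (Bos indicus), 2 that ovulated a large follicle and formed a large corpus luteum (LF/LCL) and 3 with a small follicle and a small corpus luteum (SF/SCL). Every cow was pre-synchronized with a prostaglandin F2 alpha (PGF) analog, 0.5 mg of sodium cloprostenol, and a GnRH agonist, and then received an intravaginal device with 1 g of progesterone together with 2 mg of estradiol benzoate. All cows were given PGF when the device was removed and again 6 h later, and a GnRH agonist then induced ovulation. In LF/LCL an additional PGF injection was given at device insertion and the device was removed 42 h before GnRH. In SF/SCL the device was removed 30 h before GnRH. Tissue was taken on day 4 after the induction, as the whole wall of the ampulla on the side of the corpus luteum. According to the study's methods, the sequenced cows were picked from the extremes of their groups for follicle size, corpus luteum area and hormone concentrations, and another LF/LCL library was discarded for quality. Age was not stated beyond parity.

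Annexins are cytosolic proteins that bind negatively charged phospholipids when calcium is present. They share a conserved membrane-binding core and differ in the stretch before it, to which partners such as S100 proteins attach. Although they lack a classical secretion signal, several are also found on the outer face of the plasma membrane. In cattle, sperm coated with binder of sperm proteins from seminal plasma attach to the oviductal epithelium, and ANXA1, ANXA2, ANXA4 and ANXA5 have been proposed as their binding partners there. Sperm binding and annexin protein were not measured in these data.

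Values are normalized reads, that is, the reads of a gene divided by the size factor of its library. Between 13418278 and 19592174 reads were assigned to genes per library. Markers of the tissue were present in all 5 libraries, with 117179 to 147247 normalized reads for the oviductal glycoprotein OVGP1, 8481 to 12698 for FOXJ1 of ciliated cells and 715.8 to 1279 for PAX8 of secretory cells. SF/SCL replicate 3 stood apart on the first principal component (36.9% of the variance), with a score of 59.5 against 12.1 and 11.4 in the other SF/SCL libraries and -42.4 and -40.6 in LF/LCL. The smooth muscle markers summed to between 66783 and 128925 normalized reads in LF/LCL and between 17974 and 44526 in SF/SCL. For the ciliated cell markers the sums were 73956 to 93577 in LF/LCL against 108654 to 112849 in SF/SCL.

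The comparison asked whether annexin transcripts differed between cows with a large and a small ovulatory follicle. Of the 10 annexins, ANXA6 was higher in LF/LCL and ANXA4 was higher in SF/SCL in every library, with 2.16 and 1.74 times the mean of the other group. The remaining 8 had groups that overlapped, except that ANXA8 no longer overlapped when libraries were scaled by their total reads. None of the 10 passed an adjusted p of 0.05 with limma on log2(value + 1), the main test, as was the case for all 15815 genes tested (0.00%). ANXA4 and ANXA6 were the 2 annexins with an unadjusted p under 0.05, against 11.5% of all genes tested (5.64% higher in LF/LCL, like ANXA6, and 5.86% higher in SF/SCL, like ANXA4). They were also the 2 whose groups did not overlap, against 30.1% of all genes tested, made up of 15.0% with LF/LCL above and 15.1% with SF/SCL above. On recovered whole reads the edgeR quasi-likelihood test and limma-voom called 0 of the 10 annexins, as they called 0 of all 15815 genes tested (0.00%). DESeq2 and the edgeR exact test called both ANXA4 and ANXA6, beside 2.89% and 2.12% of all genes. DESeq2 called 1.38% of all genes as higher in LF/LCL and 1.50% as higher in SF/SCL. For 6 annexins the 95% interval of the log2 fold change stayed within 1 in both directions, against 62.4% of all genes tested. The log2 fold change, LF/LCL over SF/SCL, was above 0 for 6 annexins and below 0 for 4, with a median of 0.05, beside 50.8% above 0 and a median of 0.005 for all genes tested.

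**Figure D1:**
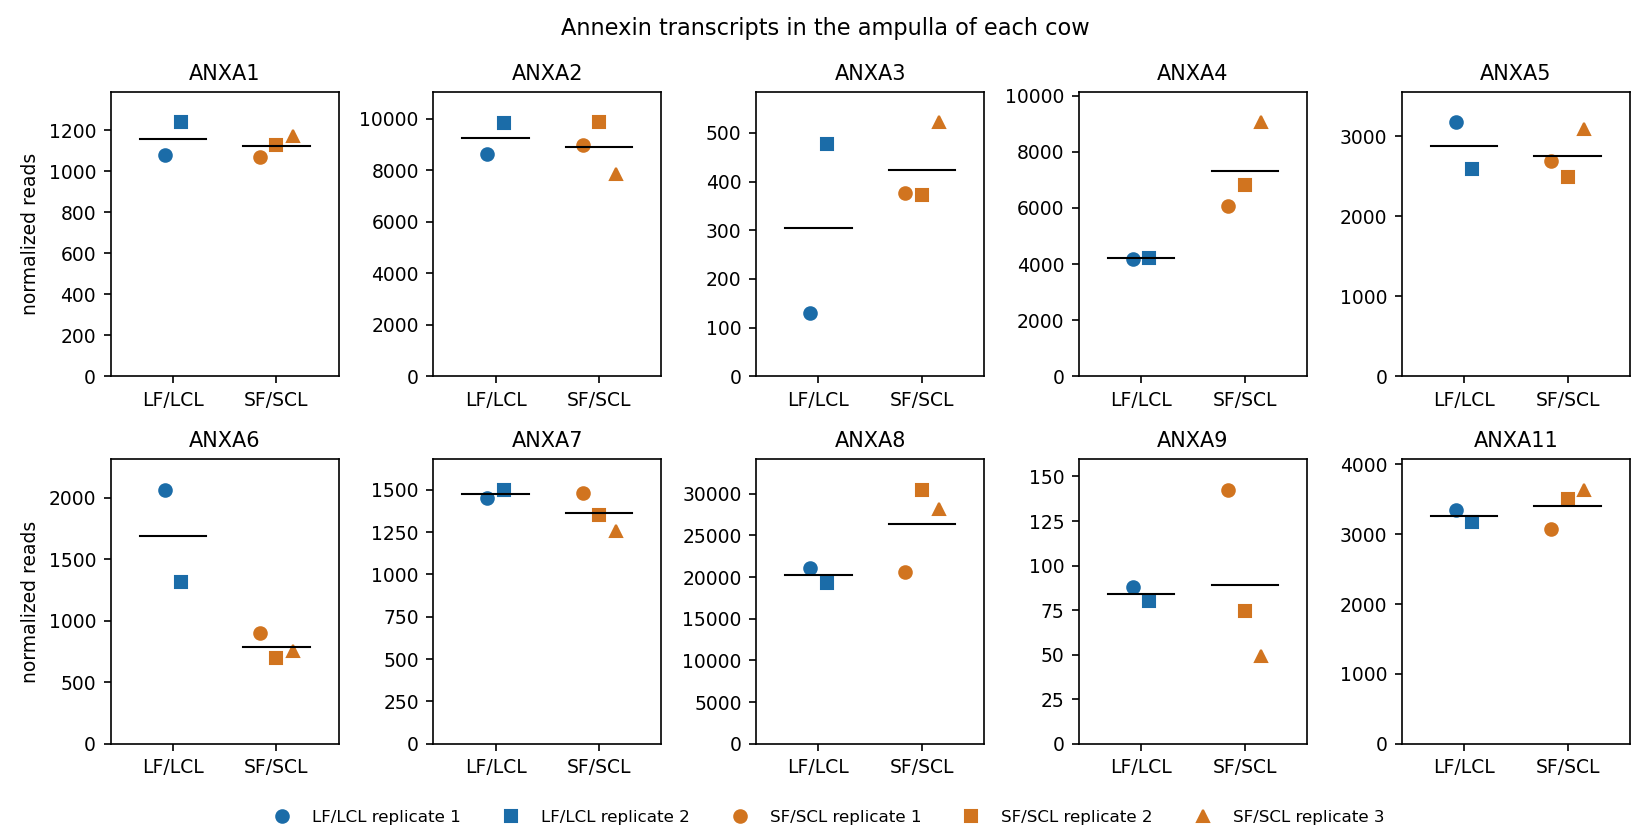
Normalized reads (vertical axis, from 0, a separate scale for each gene) of the 10 annexins in the 2 LF/LCL and 3 SF/SCL libraries, with 1 point per cow and a line at each group mean. The groups separate for ANXA4 (all SF/SCL points above LF/LCL) and ANXA6 (both LF/LCL points above SF/SCL), and overlap in these values for the other annexins.

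Among the proposed sperm-binding annexins, ANXA4 (ENSBTAG00000001105) was the one whose groups did not overlap. This annexin is abundant in secretory epithelia and has been linked to the control of chloride conductance at the cell membrane. It had 4193 and 4214 normalized reads in LF/LCL (replicates 1 and 2) against 6085, 6810 and 9049 in SF/SCL (replicates 1 to 3). The 2 LF/LCL values were nearly the same, while the SF/SCL values were spread and all lay above them. The means were 4204 ± 15.3 (SD, n = 2) and 7315 ± 1545 (SD, n = 3). The log2 fold change was -0.78 ± 0.18 (SE), with a 95% interval from -1.21 to -0.34 and a limma adjusted p of 0.264 (unadjusted 0.00453). In fold terms the interval runs from 1.27 to 2.32 times higher in SF/SCL. DESeq2 gave a log2 fold change of -0.80 ± 0.21 (SE) with an adjusted p of 0.0106, and the exact test an adjusted p of 0.0383. Without SF/SCL replicate 3, the highest library, the limma log2 fold change was -0.61 and the DESeq2 adjusted p was 0.0103. The DESeq2 call was lost without LF/LCL replicate 1 (adjusted p 0.169) and without LF/LCL replicate 2 (adjusted p 0.123), fits that leave 1 library in that group and assume that it varies like the others.

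The other proposed sperm-binding annexins were close between the groups. ANXA1 (ENSBTAG00000015978), an anti-inflammatory protein induced by glucocorticoids, had 1078 and 1238 normalized reads in LF/LCL against 1068, 1130.0 and 1173 in SF/SCL. All SF/SCL values but the lowest fell between the LF/LCL values. Its log2 fold change was 0.04 ± 0.11 (SE), with an interval from -0.23 to 0.31. ANXA2 (ENSBTAG00000009615), which forms a tetramer with S100A10 at the plasma membrane, had 8645 and 9846 normalized reads in LF/LCL against 8999.6, 9859 and 7848 in SF/SCL. SF/SCL held both the highest and the lowest ANXA2 value. For ANXA2 the log2 fold change was 0.06 ± 0.14 (SE), with an interval from -0.27 to 0.39. ANXA5 (ENSBTAG00000021746), the phosphatidylserine-binding annexin used as a probe of dying cells, had 3175 and 2592 normalized reads in LF/LCL against 2687, 2488 and 3094 in SF/SCL. The highest ANXA5 value was in LF/LCL and the lowest in SF/SCL, with the rest mixed between them. Its log2 fold change was 0.06 ± 0.14 (SE), with an interval from -0.29 to 0.41. For these 3 genes a difference above 1.33-fold in favour of LF/LCL, or 1.22-fold in favour of SF/SCL, lay outside the 95% interval.

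ANXA6 (ENSBTAG00000014809) is a long annexin with a duplicated core that has been linked to membrane cholesterol, endosomes and the membrane cytoskeleton. It had 2062 and 1313 normalized reads in LF/LCL (replicates 1 and 2) against 897.3, 693.2 and 755.5 in SF/SCL (replicates 1 to 3). Both LF/LCL values lay above the SF/SCL values, and here the LF/LCL values were the more spread. The means were 1688 ± 529.1 (SD, n = 2) and 782 ± 105 (SD, n = 3). On the log2 scale LF/LCL was higher by 1.08 ± 0.22 (SE), with an interval from 0.55 to 1.61 and a limma adjusted p of 0.235 (unadjusted 0.00242). DESeq2 gave 1.11 ± 0.26 (SE) with an adjusted p of 0.0018, and the exact test an adjusted p of 0.00164. Without LF/LCL replicate 1, the highest library, the limma log2 fold change was 0.76 and the DESeq2 call was lost. Without LF/LCL replicate 2 the limma log2 fold change was 1.41. Both fits leave 1 library in that group and assume that it varies like the others. The DESeq2 call was kept without each SF/SCL replicate.

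**Figure D2:**
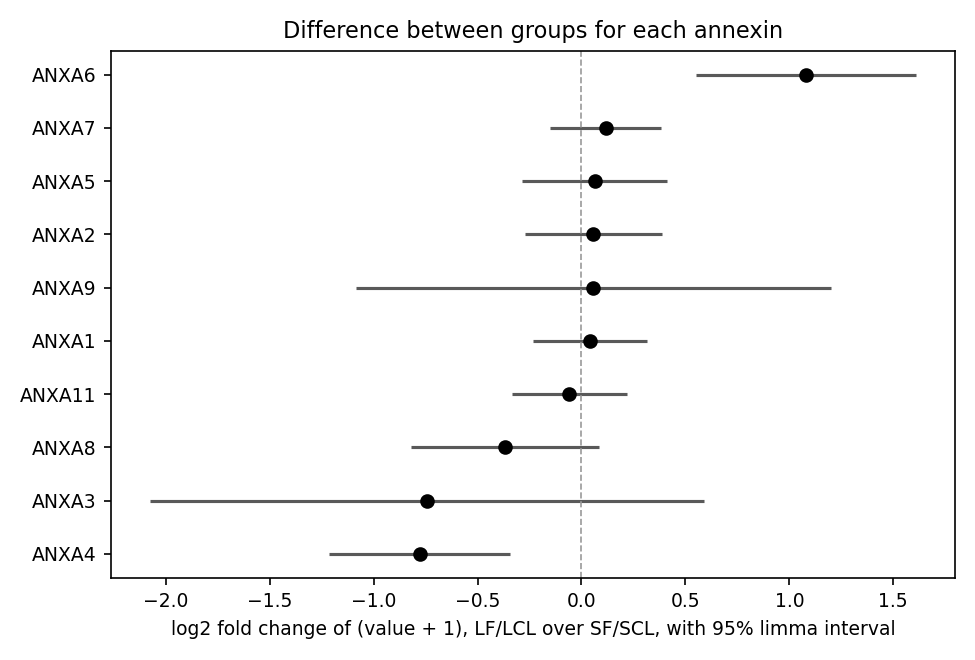
Log2 fold change of value + 1 between LF/LCL and SF/SCL (points, horizontal axis) with its 95% limma interval (lines) for each annexin, ordered by size. The intervals of ANXA6 (0.55 to 1.61) and ANXA4 (-1.21 to -0.34) leave out 0, and those of ANXA3 and ANXA9 are the widest.

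Between the groups, smooth muscle markers differed in the same direction as ANXA6, and ciliated cell markers in the same direction as ANXA4. Of the 12 smooth muscle markers tested, 9 had an unadjusted p under 0.05, all higher in LF/LCL (5.64% of all genes tested), with a median log2 fold change of 1.37 over the list. ACTA2, smooth muscle actin, had 28142 and 15733 normalized reads in LF/LCL against 10149.5, 9629.8 and 2952 in SF/SCL. LF/LCL replicate 1 was the highest library for both ANXA6 and the smooth muscle sum, whereas the lowest library was SF/SCL replicate 2 for ANXA6 and SF/SCL replicate 3 for the smooth muscle sum. Per 100 normalized reads of smooth muscle markers there were 1.6 and 1.97 of ANXA6 in LF/LCL against 2.12, 1.56 and 4.2 in SF/SCL, a ratio in which the groups overlapped and SF/SCL replicate 3 was the highest. Per 100 reads of endothelial markers the ANXA6 values were 25.2 and 25.7 in LF/LCL against 13.6, 11.4 and 8.54 in SF/SCL, which did not overlap. Per 100 reads of stromal fibroblast markers they were 2.48 and 3.78 in LF/LCL against 2.26, 3.2 and 1.57 in SF/SCL, and per 100 reads of immune cell markers 36.9 and 19.4 in LF/LCL against 15.8, 19.8 and 17.5 in SF/SCL, and both overlapped. Of the 18 ciliated cell markers tested, 12 had an unadjusted p under 0.05, all higher in SF/SCL (5.86% of all genes tested), with a median of -0.40. Per 100 reads of ciliated cell markers there were 5.67 and 4.5 of ANXA4 in LF/LCL against 5.47, 6.03 and 8.33 in SF/SCL, so that the groups overlapped. Per 100 reads of secretory epithelial markers other than OVGP1 there were 9.3 and 9.9 of ANXA4 in LF/LCL against 16.0, 16.7 and 22.0 in SF/SCL, without overlap. That list also holds general epithelial genes such as keratins. The part of cell composition in the annexin differences was not tested. In whole tissue, fewer cells of a type and less RNA per cell cannot be told apart.

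**Figure D3:**
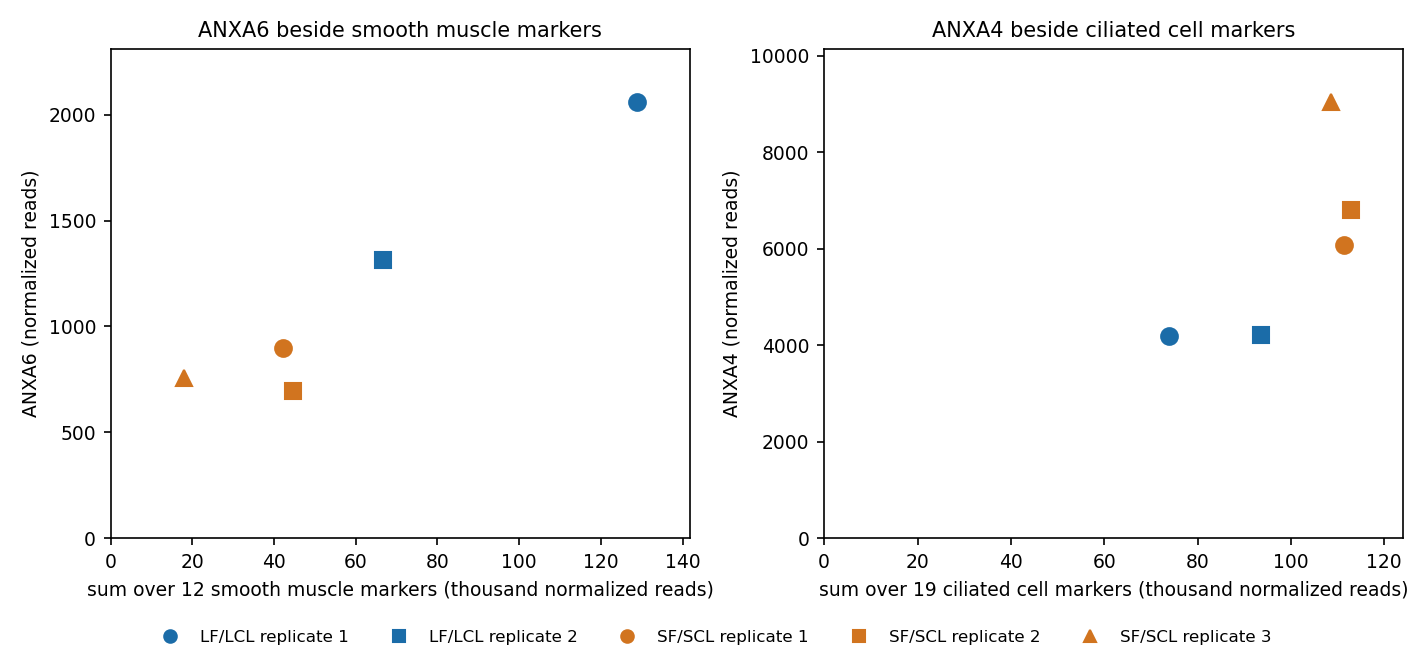
Left, normalized reads of ANXA6 (vertical axis) against the summed normalized reads of 12 smooth muscle markers (horizontal axis). Right, ANXA4 against the sum of 19 ciliated cell markers. Each point is 1 cow. LF/LCL replicate 1 is the highest for ANXA6 and smooth muscle markers, and among the SF/SCL libraries ANXA4 runs from 6085 to 9049 while the ciliated sum stays between 108654 and 112849.

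The remaining marker lists were read for the same libraries, beside 11.5% of all genes tested with an unadjusted p under 0.05 (5.64% higher in LF/LCL, 5.86% in SF/SCL). For the immune cell markers 5 of 14 tested had an unadjusted p under 0.05, all higher in LF/LCL, with sums of 5593 to 6775 normalized reads in LF/LCL against 3499.6 to 5679.8 in SF/SCL. The neutrophil markers were low, from 536 to 797.6 in LF/LCL against 268.1 to 461.6 in SF/SCL, with 2 of 4 tested higher in LF/LCL at that threshold. Of the 11 secretory epithelial markers 4 were higher in LF/LCL at that threshold and KRT19 was higher in SF/SCL. The specificity of this list to secretory cells was not tested. KDR alone passed it among 9 endothelial markers, a share near that of all genes, and was higher in SF/SCL, and 0 passed it among 8 stromal fibroblast, 4 mesothelial and 3 blood markers tested. The stromal sum was highest in LF/LCL replicate 1 (83009) and lowest in SF/SCL replicate 2 (21644), and the blood sum ran from 32.2 to 527.7.

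The ratio of ANXA4 to ANXA6 within a library does not depend on how libraries are scaled. It was 2.03 and 3.21 in LF/LCL against 6.78, 9.82 and 11.98 in SF/SCL, 3.63 times higher on average in SF/SCL. As the 2 genes were set side by side because they differed in opposite directions, this ratio is a description only, and gene length was not taken into account.

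ANXA8 and ANXA3 showed lower means in LF/LCL with groups that overlapped. ANXA8 (ENSBTAG00000018499), an epithelial annexin with anticoagulant activity, had 21102 and 19329.5 normalized reads in LF/LCL against 20642, 30466 and 28177 in SF/SCL. SF/SCL replicate 1 lay within the LF/LCL range and the other SF/SCL libraries lay above it. As a share of all reads ANXA8 took 0.1341% and 0.123% in LF/LCL against 0.1343%, 0.2001% and 0.184% in SF/SCL, where the groups just failed to overlap. Its log2 fold change was -0.37 ± 0.19 (SE), with an interval from -0.82 to 0.08 and a limma adjusted p of 0.509. Without SF/SCL replicate 1 it was -0.54 with an unadjusted limma p of 0.0107, and the DESeq2 adjusted p was 0.0525. ANXA3 (ENSBTAG00000010153), a component of neutrophil granules that is also made by epithelia, had 130.2 and 477.2 normalized reads in LF/LCL against 376.4, 372.3 and 521.6 in SF/SCL. A single library, LF/LCL replicate 1, was low, and the other LF/LCL library lay among the SF/SCL values. The low value came from 111 reads, for which counting error alone gives an exact Poisson interval of 107.1 to 156.8 normalized reads. The log2 fold change of ANXA3 was -0.74 ± 0.54 (SE), with an interval from -2.08 to 0.59. It turned to 0.19 without LF/LCL replicate 1 and was -1.68 without LF/LCL replicate 2, fits that leave 1 library in that group. The size and sign of the ANXA3 difference thus rested on the 2 LF/LCL cows.

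ANXA7, ANXA11 and ANXA9 did not separate the groups. ANXA7 (ENSBTAG00000020218), known from the fusion of secretory granules, had 1452 and 1498 normalized reads in LF/LCL against 1481, 1348 and 1259 in SF/SCL. Its log2 fold change was 0.12 ± 0.11 (SE), with an interval from -0.15 to 0.38. ANXA11 (ENSBTAG00000020940), a binding partner of S100A6 that tethers RNA granules to lysosomes, had 3346 and 3174 in LF/LCL against 3069, 3499.6 and 3634 in SF/SCL. The SF/SCL values enclosed the LF/LCL values, and the log2 fold change was -0.06 ± 0.11 (SE), with an interval from -0.33 to 0.22. ANXA9 (ENSBTAG00000015304), an atypical annexin whose calcium sites are degenerate, had 88.0 and 80.3 normalized reads in LF/LCL against 142.4, 74.6 and 49.4 in SF/SCL. SF/SCL replicate 1 was the highest and SF/SCL replicate 3 the lowest of all, with 46 reads. Its log2 fold change was 0.06 ± 0.47 (SE), with an interval from -1.09 to 1.20, which does not limit a difference of up to 2-fold in either direction.

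The annexins differed in how evenly they were expressed among cows. ANXA1, ANXA2, ANXA5, ANXA7 and ANXA11 were the 5 with the smallest range, in which the highest library had from 1.16 to 1.28 times the lowest. The spread was larger in ANXA8 (1.58 times), ANXA4 (2.16 times), ANXA9 (2.89 times), ANXA6 (2.97 times) and ANXA3 (4.01 times). Within groups, the residual SD of log2 values was 0.10 for ANXA1 and for ANXA7 and 0.79 for ANXA3. Among 5192 genes with a mean within 2 times that of ANXA3, 96.8% had a smaller residual SD. For ANXA6 the same share was 86.8%, for ANXA9 77.9%, for ANXA4 76.7% and for ANXA8 68.8%. It was 65.4% for ANXA5, 56.1% for ANXA2, 37.1% for ANXA11, 29.3% for ANXA7 and 27.3% for ANXA1. The counting CV of the library with the fewest reads was 9.49% for ANXA3, 3.77% for ANXA6 and 1.67% for ANXA4, and covers counting error only.

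Together the 10 annexins took 0.288% and 0.28% of the reads in LF/LCL against 0.296%, 0.373% and 0.363% in SF/SCL, with means of 0.284% ± 0.0057 (SD, n = 2) and 0.344% ± 0.042 (SD, n = 3). The LF/LCL libraries were both below the SF/SCL libraries. ANXA8 held from 44.2% to 53.7% of all annexin reads. Without ANXA8 the share was 0.154% and 0.156% in LF/LCL against 0.161%, 0.173% and 0.179% in SF/SCL. ANXA4, whose groups did not overlap, is still in that share. Alone it took 0.0266% and 0.0269% in LF/LCL against 0.0396%, 0.0447% and 0.0591% in SF/SCL. The sums do not speak for every annexin, as the log2 fold change was above 0 for 6 and below 0 for 4. The order of levels between annexins is not given, because the deposited values are not per gene length.

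Partners and neighbours in function were read from 6 lists. As the lists were chosen with earlier results of these data known, all counts from them are a description only. In the lists 55 entries were tested. Of them 13 had an unadjusted limma p under 0.05 (23.6%), beside 11.5% of all genes tested. With limma 0 had an adjusted p under 0.05, and 6 were called by DESeq2, beside 2.89% of all genes. Other members of the family were at or near 0. ANXA10 was at 0 in every library, and ANXA13 (ENSBTAG00000005585) had 2.9 normalized reads in LF/LCL replicate 2, 8.55 in SF/SCL replicate 2 and 0 elsewhere. Another ANXA13 entry (ENSBTAG00000047212) was at 0 throughout. A count of 0 allows up to 3 reads, or 2.33 to 3.52 normalized reads depending on the library. ANXA8L1 and ANXA2R were not analysed here.

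The list of S100 partners holds S100 proteins, small calcium-binding proteins that dock on annexins, and the scaffold AHNAK. Of its 7 tested entries 4, all S100 proteins, had an unadjusted p under 0.05, beside 11.5% of all genes tested. S100A10, the partner of ANXA2, had 3877 and 4156 normalized reads in LF/LCL against 3129, 2506 and 2124 in SF/SCL. Both LF/LCL values lay above all SF/SCL values. For S100A10 the log2 fold change was 0.65 ± 0.17 (SE), and the adjusted p was 0.306 by limma and 0.0674 by DESeq2. The ratio of ANXA2 to S100A10 was 2.23 and 2.37 in LF/LCL against 2.88, 3.93 and 3.7 in SF/SCL, without overlap. As ANXA2 was close between the groups, this ratio follows S100A10 and is a description only. Of all genes tested, 30.1% had groups that did not overlap. S100B, which binds ANXA6, had 27894 and 35927 in LF/LCL against 20009.9, 13945 and 9770.3 in SF/SCL. Like ANXA6 it was higher in both LF/LCL libraries, but its order among them was the opposite of that of ANXA6. S100B differed by 1.18 ± 0.31 (SE) on the log2 scale, and the adjusted p was 0.306 by limma and 0.0173 by DESeq2. S100A12, a protein of myeloid cells that is also on the list of neutrophil markers, had 243.9 and 241.0 in LF/LCL against 59.3, 103.4 and 86.9 in SF/SCL, which gave a log2 difference of 1.57 ± 0.30 (SE) and an adjusted p of 0.222 by limma and 0.000549 by DESeq2. S100A1, another partner of ANXA6, went the other way, with 398 ± 135 (SD, n = 2) in LF/LCL against 656 ± 115 (SD, n = 3) in SF/SCL and a limma adjusted p of 0.373. S100A11, the partner of ANXA1, had 3783 and 3837 in LF/LCL against 4217, 4123 and 3979 in SF/SCL. These groups did not overlap either, but the log2 fold change was only -0.11 ± 0.09 (SE), with an unadjusted p of 0.287. S100A4 (log2 fold change -0.11 ± 0.34, SE) and the scaffold AHNAK (-0.15 ± 0.15, SE) overlapped between the groups, and S100A6 was not analysed here.

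**Figure D4:**
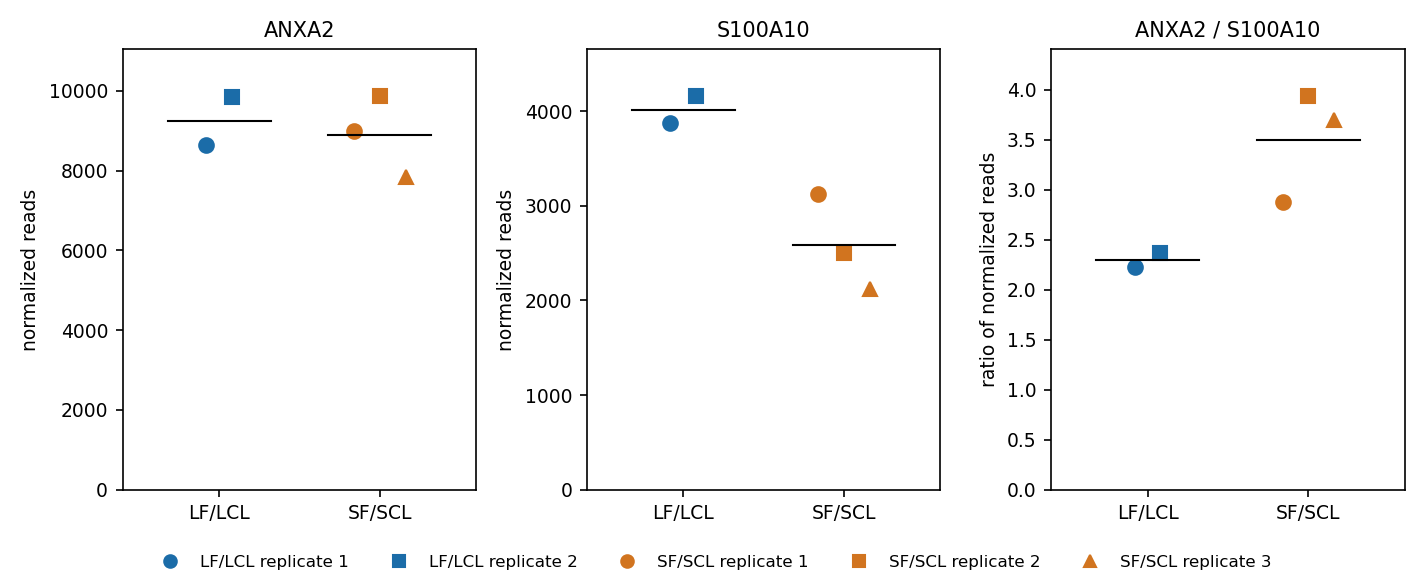
Normalized reads of ANXA2 (left) and S100A10 (middle) and their ratio (right) in each library, with a line at each group mean and vertical axes from 0. ANXA2 overlaps between the groups, S100A10 is higher in both LF/LCL libraries, and the ratio runs from 2.23 to 2.37 in LF/LCL and from 2.88 to 3.93 in SF/SCL.

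The phospholipase that ANXA1 acts on and the genes of plasminogen activation showed small differences or wide errors. PLA2G4A, that cytosolic phospholipase, averaged 821 ± 26.9 normalized reads (SD, n = 2) in LF/LCL against 789 ± 248 (SD, n = 3) in SF/SCL. The formyl peptide receptors through which ANXA1 signals were not analysed here. In the list for plasminogen activation, which ANXA2 and S100A10 promote, 0 of 5 tested had an unadjusted p under 0.05. Tissue plasminogen activator (PLAT) had 2611 and 1497 normalized reads in LF/LCL against 2484, 2201 and 3128 in SF/SCL, urokinase (PLAU) differed by 0.10 ± 0.17 (SE) on the log2 scale and its receptor PLAUR by 0.55 ± 0.57 (SE). The inhibitor SERPINE2 had a log2 fold change of 0.31 ± 0.42 (SE). Plasminogen itself (PLG) had 8.21 normalized reads in LF/LCL replicate 1 and 0 in the other libraries.

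Other calcium-dependent phospholipid-binding and membrane repair genes, among them the copines, ferlins and synaptotagmins, had 2 of 20 tested entries with an unadjusted p under 0.05, a share no higher than the 11.5% of all genes tested. Both entries were higher in LF/LCL. These were CHMP4B, a subunit of the membrane-cutting ESCRT machinery (1902 ± 299 normalized reads, SD, n = 2, and 1318 ± 118, SD, n = 3), and SYT1, a calcium sensor of vesicle fusion (45.9 ± 4.71 and 15.3 ± 8.72). Their limma adjusted p was 0.306 and 0.414. SYT7 followed with an unadjusted limma p of 0.052 and 47.8 ± 17.0 normalized reads in LF/LCL against 85.1 ± 14.7 in SF/SCL (SD). CPNE3, the next by p, had 1155 ± 106 and 1350 ± 56.2 (SD).

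The list of other candidate sperm-binding proteins of the oviduct also holds fucosyltransferases, which are enzymes. In it 7 of 22 tested entries had an unadjusted p under 0.05, beside 11.5% of all genes tested. Of these, 3 were higher in LF/LCL (5.64% of all genes) and the other 4 in SF/SCL (5.86% of all genes). HSPA1A, an inducible heat shock protein, had 12075 and 13198 normalized reads in LF/LCL against 24137, 21689.8 and 30245 in SF/SCL. As for ANXA4, all SF/SCL values lay above LF/LCL and SF/SCL replicate 3 was the highest. LGALS1, a galactoside-binding lectin, had 3643 and 2213 in LF/LCL against 1328, 1132 and 1085 in SF/SCL. Another lectin, LGALS3 (ENSBTAG00000002326), had 1151 ± 144 (SD, n = 2) and 691 ± 85.7 (SD, n = 3). The limma adjusted p was 0.183 for HSPA1A, 0.203 for LGALS1 and 0.236 for LGALS3, and DESeq2 called all 3. The remaining gene of the list that DESeq2 called was FUT1, named here after its values were seen. FUT1 is a fucosyltransferase and so is listed as an enzyme, not as a binding protein. It is counted among the entries higher in SF/SCL. It had 45.7 and 81.3 normalized reads in LF/LCL against 314, 105.7 and 446.4 in SF/SCL. FUT1 differed by -1.99 ± 0.64 (SE) on the log2 scale, with an adjusted p of 0.36 by limma and 0.0189 by DESeq2. CD44, the hyaluronan receptor, was the next by p, with 330 ± 31.1 (SD, n = 2) and 189.4 ± 43.5 (SD, n = 3) and a limma adjusted p of 0.333.

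The genes with the profile nearest to that of each differing annexin were found among 11942 genes with a mean of at least 50 normalized reads, by the root mean square difference of centred log2 values over the 5 libraries. For ANXA4 these were TRERF1 (difference 0.03), a transcriptional regulator, SIAT4B (0.05), a sialyltransferase, and ACER2 (0.07), a ceramidase. TRERF1 had 183 and 183.9 normalized reads in LF/LCL against 275.5, 296.1 and 385.3 in SF/SCL. For ANXA6 they were FAM134B (0.10), a receptor for turnover of the endoplasmic reticulum, ENTPD1 (0.11), an ectonucleotidase, and LGALS1 (0.11). FAM134B had 497.3 and 325.2 in LF/LCL against 206.9, 177.2 and 157.8 in SF/SCL. With 5 libraries many genes share a profile closely, as 165 genes lay within 0.2 of ANXA4 and 32 within 0.2 of ANXA6.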

How the data were processed

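RNA of the ampulla of 5 cows, 1 library each, was sequenced after a TruSeq poly(A) preparation. The deposited signal values are gene counts that the authors divided by size factors. The submitters' processing notes name CASAVA 1.8.2, TopHat2 2.0.8, Bowtie2 2.1.0, SAMtools 0.1.18, HTSeq 0.5.4p2 and DESeq 1.12.1, and reads were aligned to the masked UMD cattle assembly. The strand setting was not given in the sources used here, so overlapping genes and near-identical copies are uncertain. Whole reads were recovered from the value steps (100% of values whole within 0.001 in each library).

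LF/LCL was compared with SF/SCL by limma 3.58.1 (trend and robust, two-sided) on log2(value + 1), which understates changes of low genes, for 15815 genes with a mean above 5, with Benjamini-Hochberg adjustment at 0.05. Recovered reads were tested with edgeR 4.0.16 (quasi-likelihood and exact), DESeq2 1.42.0 and limma-voom in R 4.3.3. The scripts were tested on simulated data. An exact permutation test of 2 against 3 cannot go below 0.2 two-sided and was not used. Libraries were from different cows.

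The members and lists were chosen with earlier results of these data known. Named genes were all 10 annexins, the 4 members with the smallest limma p of each of 6 partner lists, lists of at most 8 genes in full (except an item not reported here), the 3 genes most like each annexin with an unadjusted p under 0.05, and up to 3 defining genes of the 9 marker lists. ANXA8 and ANXA13 entries and older symbols were matched as the table names them.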

Additional observations from a re-analysis of the deposited data

How the results depend on the processing

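Over 11 settings of pseudocount, filter, scaling and tool, the log2 fold change of ANXA4 stayed between -0.81 and -0.78 and that of ANXA6 between 1.04 and 1.11. With DESeq2 and with the edgeR exact test 2 annexins passed an adjusted p of 0.05, against 0 with limma, and 457 and 335 of all genes against 0. The cause was not tested. DESeq2 without each replicate, added after seeing the data, called 0 to 2 annexins, and of all genes 269 and 350 without LF/LCL replicates 1 and 2, and 404, 359 and 294 without SF/SCL replicates 1, 2 and 3. The annexins called were ANXA4 and ANXA6 without each SF/SCL replicate. They were ANXA3 and ANXA6, not ANXA4, without LF/LCL replicate 2, a fit that leaves 1 library in that group. With library size scaling 3 annexins did not overlap between the groups, ANXA4, ANXA6 and ANXA8. The share of all genes was not computed under that scaling, and was 30.1% in the deposited values. The nearest ANXA8 shares were 0.1341% of reads in LF/LCL replicate 1 and 0.1343% in SF/SCL replicate 1. Leaving out each library gave 2 to 6 annexins whose groups did not overlap, with 41.1% to 57.1% of all genes, since fewer libraries overlap less often. The log2 fold change of ANXA9 turned to -0.0761 with edgeR quasi-likelihood, -0.0758 with DESeq2 and -0.0762 with the exact test. With a library left out, log2 fold changes ran from -0.0589 to 0.14 for ANXA1, -0.0361 to 0.15 for ANXA2, -1.68 to 0.19 for ANXA3, -0.90 to -0.61 for ANXA4, -0.0827 to 0.21 for ANXA5, 0.76 to 1.41 for ANXA6 and -0.29 to 0.46 for ANXA9. For ANXA7, ANXA8 and ANXA11 these ranges were 0.06 to 0.18, -0.54 to -0.26 and -0.13 to -0.0082. The median of all genes was 0.0054, 0.0074 with TMM and -0.0304 with library size scaling. No paired analysis was possible because the libraries came from different cows, each in a single group. The 2 LF/LCL libraries limit every comparison, and ANXA9 rested on 46 to 137 reads a library.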
